A study of Mus musculus with 4 samples.

Results

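The clock output transcription factors are the 7 genes Dbp, Tef, Hlf, Nfil3, Ciart, Bhlhe40 and Bhlhe41, found by gene name among the 37074 names on a mouse array. They had 14 of the 56605 probes that are not controls. All 7 genes were above background on at least 2 arrays and entered the set of 22498 genes compared. They were chosen by family with the differences between these same arrays in view, so those differences are given as a description, with no test.

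RNA of abdominal aorta was hybridised to 4 one-colour arrays, 1 for each sample. W2 and W3 are labelled Wild Type, and K4 and K5 are labelled SR-A1-/-, that is, lacking the macrophage scavenger receptor SR-A1. All samples came from male mice of 12 weeks, 4 weeks after calcium phosphate (CaPO4), an agent used to injure the aortic wall. There were 2 arrays in each group and no array without CaPO4, so differences between groups are between injured vessels. The allele, any pooling of animals and the hour of day at which tissue was taken are not given in the sources used here. Whether the arrays of a group are separate animals is not stated either, so no error below is known to measure spread between animals. The errors are those of limma, which moves the spread between a gene's arrays toward a value shared by all genes compared. They can be smaller than the plain spread where W2 and W3 lie far apart.

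The circadian clock is a loop in which CLOCK or NPAS2, paired with ARNTL, switches on genes through a DNA motif called the E-box, and the PER and CRY proteins then repress that pair. The loop passes its rhythm on through output transcription factors. DBP, TEF and HLF are activators of the PAR bZIP family that bind a motif called the D-box, and NFIL3 is a repressor that competes for the same motif. CIART, BHLHE40 and BHLHE41 are repressors that act back on ARNTL-driven transcription. In blood vessels, as in most tissues, Dbp RNA rises and falls over the day in opposite phase to Arntl.

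Promoter sequence was taken from RefSeq on GRCm38.p6, in windows of 300 bases that run from 250 bases before a gene's start to 50 after it. Of the 7 genes, 6 were matched (Dbp, Tef, Hlf, Nfil3, Ciart and Bhlhe41), with 2 windows for Tef. Both strands were searched for the E-box CACGTG, the D-box as TTATGTAA or TTACGTAA, the core of the ROR element as TAGGTCA or TGGGTCA, and the cyclic AMP response element TGACGTCA. The stretches below are shown because they hold every match upstream of a start, printed along the gene's own strand with the match in capitals.
Ciart, chr3:95882252-95882359, minus strand: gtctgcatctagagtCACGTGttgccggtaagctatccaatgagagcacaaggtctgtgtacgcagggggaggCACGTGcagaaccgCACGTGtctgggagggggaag
Tef, first window, chr15:81802531-81802566, plus strand: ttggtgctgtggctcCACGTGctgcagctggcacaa
Tef, other window, chr15:81811261-81811296, plus strand: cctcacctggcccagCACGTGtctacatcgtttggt
Bhlhe41, chr6:145865553-145865588, minus strand: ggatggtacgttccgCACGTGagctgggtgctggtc
Nfil3, chr13:52981040-52981066, minus strand: cgcggcgctcggaacTGACCTActaac
Hlf, chr11:90390918-90390941, minus strand: gcgcggtgcgggcccTGACGTCAc

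Ciart held 3 E-boxes, which began 116, 58 and 44 bases before its start. Among all 32851 windows 7.15% held an E-box and 0.0883% held at least 3. Each window of Tef held 1 E-box, at 127 and 138 bases, and Bhlhe41 held 1 at 153 bases. Nfil3 held a ROR element 12 bases before its start, a motif found in 6.45% of all windows. It reads TGACCTA above because the match is on the opposite strand. Hlf held a cyclic AMP response element at 9 bases, found in 1.79% of all windows. The Dbp window held none of the 4 motifs and no window of the family held a D-box, a motif found in 1.06% of all windows. A match is a string of letters, not a measured binding site. Of the core clock genes, 12 were matched, and E-boxes were found in Cry1 and Per1, a D-box in Per3 and a ROR element in Arntl.

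Levels are given as scaled log2 values: the log2 of a probe's processed signal, less the 75th percentile of all non-control probes on that array. They compare 1 probe between arrays and not 1 gene with another. The 75th percentile was 132 and 220 on W2 and W3 and 245 and 133 on K4 and K5, and 57.6% to 62.6% of probes were well above background. Msr1, which encodes SR-A1, did not mark the labels. Its brighter probe read -5.30 on W2, where it was not above background. On W3, K4 and K5 it read -2.10, -1.26 and -2.09, above background on each. The other Msr1 probe was likewise not above background on W2 alone. Msr1 signal was thus measured on both arrays labelled SR-A1-/-. The genotypes below are therefore those of the labels. Smooth muscle markers, which define the aortic wall, were above background for 8 of 8 genes on every array, and endothelial markers for 6 of 6.

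On all 7 output factors the arrays labelled Wild Type and SR-A1-/- did not overlap. The 3 PAR bZIP activators and the repressors Ciart, Bhlhe40 and Bhlhe41 read higher on both K arrays, and Nfil3 read lower on both. Over the 22498 genes compared, 29.8% had groups that did not overlap, 16.1% higher and 13.7% lower on the K arrays. A difference of at least 2-fold without overlap was found in 5 factors in the higher direction, where the share over all genes was 3.96%, and in 1 in the lower direction, where it was 2.44%. In either direction that share was 6.4%. The median difference of the 7 factors, K minus W, was 2.04, and over all genes it was -0.0057. It was also 2.04 with the one dim Ciart value raised as described below. No factor passed an adjusted p of 0.05 in limma, nor did any gene (0%), while 1416 of the genes had an unadjusted p under 0.05. These shares stand beside counts that the choice of genes already used, and nothing is read from them.

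**Figure D1:**
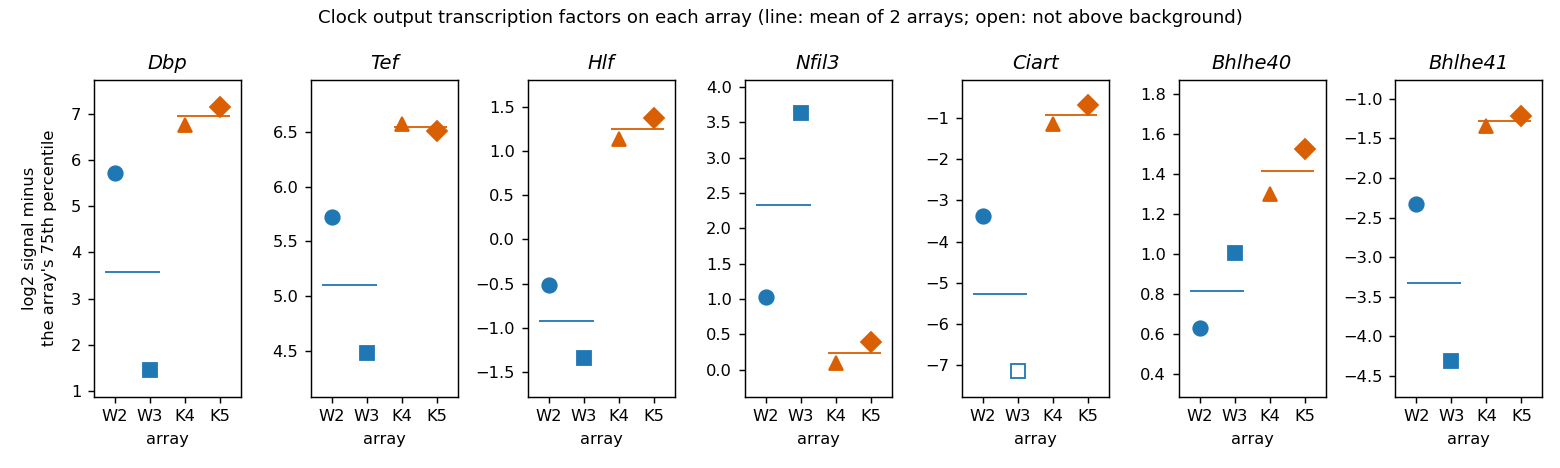
Scaled log2 value (log2 signal minus the array's 75th percentile) of the main probe of each gene on arrays W2 and W3 (blue, Wild Type) and K4 and K5 (orange, SR-A1-/-), with a line at the mean of each group and its own vertical scale in each panel. K4 and K5 lie close together in every panel, while W3 stands far from W2 for Dbp, Ciart and Nfil3; the open symbol marks Ciart on W3, which was not above background.

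Dbp (NM_016974), the activator named for its binding to the albumin promoter, differed widely between the Wild Type arrays. At chr7:52965265-52965324 (mm9) its processed signal was 6893 on W2, 605 on W3, 26471 on K4 and 18787 on K5. The scaled log2 values were 5.71 and 1.46 on W2 and W3 and 6.76 and 7.15 on K4 and K5. W3 was far below the other 3 arrays, and W2 was below both K arrays. The difference between groups was 3.37 ± 1.38 (limma standard error, n = 2 arrays per group), or 10.3-fold, and the difference between W2 and W3 was larger, at -4.25. Only 0.329% of all genes had a gap between W2 and W3 at least as wide. K4 and K5 differed by 0.39. Without W3 the Dbp difference was 1.25 and without W2 it was 5.49. Its other probe, at chr7:52965461-52965520, read 5.45, 1.43, 6.61 and 6.94 on W2, W3, K4 and K5, in the same order of arrays.

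Tef, the thyrotroph embryonic factor, had 4 probes, and all of them read lowest on W3, next on W2 and highest on the K arrays. The main probe, at chr15:81657221-81657280 (NM_017376), read 5.73 and 4.48 on W2 and W3 and 6.58 and 6.51 on K4 and K5. Its difference was 1.44 ± 0.48 (n = 2 per group), close to the gap of -1.24 between W2 and W3. Without W3 it was 0.82. The other probes differed by 1.65 (chr15:81656928-81656987), 1.70 (chr15:81651816-81653921) and 3.18 (chr15:81647233-81647292, transcript ENSMUST00000164673). The last of these read -2.84 on W3, 0.05 on W2, 1.71 on K4 and 1.86 on K5, the widest range of the 4.

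The Tef probe with the difference of 1.70 is the one probe of the family whose mm9 positions span more than its 60 bases, so that it crosses an intron. Its sequence is shown for that reason.
Tef, A_52_P173309: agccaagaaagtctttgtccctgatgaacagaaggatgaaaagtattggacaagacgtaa
It read -1.27 and -3.36 on W2 and W3 and -1.04 and -0.19 on K4 and K5. W2 and K4 were close on this probe, which measures spliced RNA, although the groups did not overlap.

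Hlf, the hepatic leukaemia factor and the third activator, had 1 probe, at chr11:90201236-90201295 (mm9, NM_172563). It read -0.51 and -1.34 on W2 and W3 and 1.13 and 1.37 on K4 and K5. Both Wild Type arrays were below both K arrays by more than the gap within either pair. The difference was 2.17 ± 0.39 (n = 2 per group), or 4.52-fold, against gaps of -0.83 between W2 and W3 and 0.24 between K4 and K5. Leaving out each array in turn gave 1.76 to 2.59.

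Nfil3, the D-box repressor that is also needed for natural killer cell development, was the single factor that read lower on the K arrays. Its main probe, at chr13:53062578-53062637 (mm9, NM_017373), had a processed signal of 270 on W2, 2715 on W3, 261 on K4 and 173 on K5. The scaled values were 1.03 and 3.63 on W2 and W3 and 0.09 and 0.39 on K4 and K5. W3 stood high, and W2 was nearer to the K arrays than to W3. The difference was -2.09 ± 0.87 (n = 2 per group), smaller in size than the gap of 2.59 between W2 and W3. Without W3 it was -0.79 and without W2 it was -3.39. The other Nfil3 probe shares 53 of its 60 bases with the main one and read 0.70, 3.36, -0.06 and 0.37 on W2, W3, K4 and K5.

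Ciart, a repressor also called CHRONO, was measured at low signal. Its main probe, at chr3:95682433-95682492 (mm9, NM_001033302), read -3.39 on W2, -7.14 on W3, -1.14 on K4 and -0.69 on K5. W3 was not above background there, and W2 lay between W3 and the K arrays. The difference was 4.35 ± 1.23 (n = 2 per group), or 3.35 with W3 raised to -5.15, the lowest signal called above background on that array. The other probe, at chr3:95685193-95685252, was not above background on either Wild Type array. There the K arrays were 2.85-fold higher with each Wild Type array set to its lowest signal called above background. A probe can fail that call at a higher signal, as Arntl did on K5, so such values are not lower bounds. The Ciart difference was 2.47 without W3 and 1.16 with normexp background correction. Without W2, W3 is the only Wild Type array, and with W3 raised in the same way the difference was 4.23. Its 3 E-boxes, printed above, were the most of any window of the family.

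The related repressors Bhlhe40 and Bhlhe41, also called DEC1 and DEC2, differed in size. Bhlhe40, at chr6:108616309-108616368 (mm9, NM_011498), read 0.63 and 1.0 on W2 and W3 and 1.30 and 1.53 on K4 and K5. These 4 values lay within 1 log2 unit, and the difference was 0.60 ± 0.30 (n = 2 per group), or 1.51-fold. Bhlhe40 was the one gene of the 7 with W2 as the lowest array, and the one below 2-fold. Leaving out W2 gave 0.41 and leaving out W3 gave 0.78.

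Bhlhe41, at chr6:145812652-145812711 (NM_024469), read -2.33 and -4.31 on W2 and W3 and -1.34 and -1.22 on K4 and K5. W3 was again the lowest array, and K4 and K5 differed by 0.12. The difference was 2.04 ± 0.68 (n = 2 per group), against a gap of -1.97 between W2 and W3. It was 1.06 without W3, 3.03 without W2 and 0.81 with normexp background correction. A second probe, for transcript NM_001271768 at chr6:145806764-145806823, was not above background on W2 or W3. With W2 and W3 raised as for Ciart, it was 7.30-fold higher on the K arrays, which is not a lower bound.

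**Figure D2:**
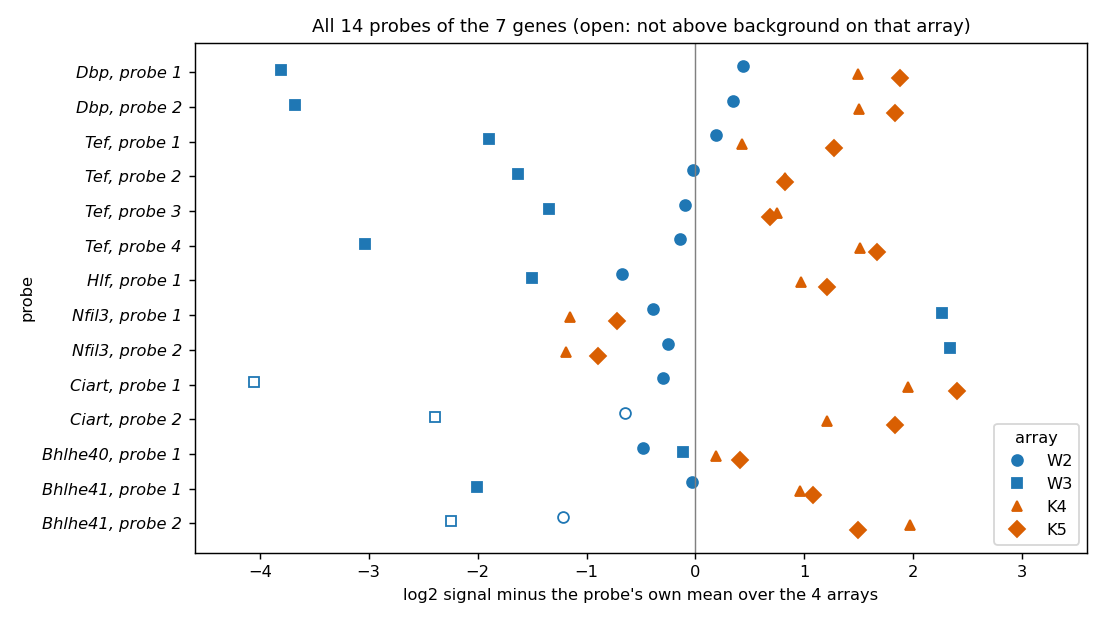
All 14 probes of the 7 genes, as log2 signal minus the probe's own mean over the 4 arrays, with probes of a gene in the order of their names and open symbols where a probe was not above background. W3 is the lowest array on 11 probes and lies on the right for both Nfil3 probes. The groups do not overlap on any of the 14. Probes of a gene are not independent and no share over all probes is given, so nothing is read from this count. The second probes of Ciart and Bhlhe41 were not above background on either Wild Type array.

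Probes of a gene gave the same direction throughout, and 12 of 14 probes were higher on the K arrays, the other 2 being those of Nfil3. Because probes of a gene are not independent, nothing is read from these counts of probes. W3 was the lowest of the 4 arrays for 5 of the 7 genes and the highest for 1, Nfil3. Over all genes compared, W3 was the lowest array for 29.2% and the highest for 27%. The gap between W2 and W3 was larger in size than the group difference for Dbp and Nfil3. Between K4 and K5 the 7 genes differed by 0.07 to 0.45 in size, and the median gap over all genes was 0.385 there and 0.426 between W2 and W3.

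The arrays also divide by signal level, with W2 and K5 low and W3 and K4 high, and each level holds 1 array of each label. Between the low arrays, K5 minus W2, Dbp differed by 1.44, Tef by 0.78, Hlf by 1.88, Ciart by 2.70, Bhlhe40 by 0.90, Bhlhe41 by 1.12 and Nfil3 by -0.65. Between the high arrays, K4 minus W3, the same genes differed by 5.30, 2.09, 2.47, 4.01, 0.30, 2.97 and -3.53. The value of Ciart is with W3, where it was not above background, raised to that array's lowest signal called above background. Dbp and Nfil3 thus differed far less between the arrays of low signal, while Hlf was similar at both levels.

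The core clock loop was read as the list of genes that drive these factors, and 13 of its 14 genes were compared, Rorb being too dim. Of these, 8 had groups that did not overlap, 4 higher and 4 lower on the K arrays, and 5 of the 8 differed by at least 2-fold. Over all genes compared, the shares were 29.8% without overlap and 6.4% without overlap and at least 2-fold apart. The list's genes differed in both directions, with a median difference of 0.25, and 0 of them passed an adjusted p of 0.05 in limma. The list was drawn up with results of these arrays known.

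The positive arm of the loop read lower on the K arrays. Arntl, the partner of CLOCK, was not above background on K5. It read -1.08 and 0.58 on W2 and W3 and -3.59 and -4.46 on K4 and K5, a difference of -3.77 ± 0.66 (n = 2 per group). Npas2, the stand-in for CLOCK, read -3.38 and -1.99 on W2 and W3 and was not above background on either K array, at -5.46 and -5.68. It was 5.69-fold lower on the K arrays, with each K array taken at its lowest signal called above background. That value is not a bound, since Arntl was not above background on K5 at -4.46, over that array's lowest of -5.35. Clock itself differed by -0.85 ± 0.29. For all 3 genes W3 was the highest array, as it was for Nfil3.

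Repressors of the loop were higher or mixed. Per3 read 1.88 and -0.96 on W2 and W3 and 2.30 and 2.77 on K4 and K5, with W3 alone below 0, and differed by 2.08 ± 0.96. Per2 read 1.36 and 1.66 against 2.72 and 3.06 and differed by 1.38 ± 0.31. The groups overlapped for Per1, at 0.25 ± 0.53, and for Cry1, at 0.44 ± 0.82. Cry2 differed by 0.45 ± 0.30, without overlap.

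Nr1d1 and Nr1d2 encode the REV-ERB receptors, which repress Arntl and Nfil3 through ROR elements. Nr1d1 read 2.91 on W2, -1.14 on W3, 2.27 on K4 and 2.92 on K5, so that W2 lay with the K arrays and W3 alone was low. Its groups overlapped, at a difference of 1.72 ± 1.33. Nr1d2 read 1.94 and 0.36 against 2.78 and 2.67 and differed by 1.57 ± 0.57. Rora, whose product activates through the same element, and the kinase genes Csnk1d and Csnk1e differed by -0.14 to 0.06.

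**Figure D3:**
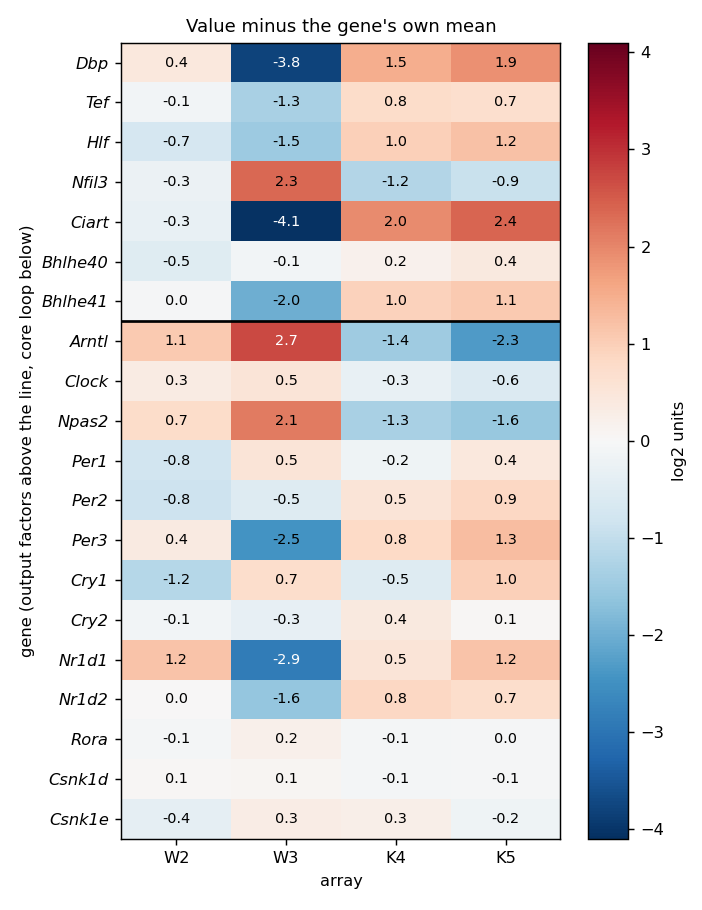
Scaled log2 value minus the gene's own mean over the 4 arrays, for the 7 output factors (above the line) and the 13 measured core loop genes (below it), with red above and blue below the gene's mean. Arntl, Npas2 and Nfil3 are highest on W3, where Dbp, Ciart, Nr1d1 and Per3 are lowest; Ciart on W3, Npas2 on both K arrays and Arntl on K5 were not above background.

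Of 15 other genes known to follow the clock in many tissues, 7 were higher and 1 was lower on both K arrays, with a median difference of 0.11. Over all genes compared, 16.1% were higher and 13.7% lower on both K arrays. Wee1, a kinase that delays mitosis and is driven through E-boxes, read -1.43 and -1.52 on W2 and W3 and -0.10 and 0.46 on K4 and K5. Unlike Dbp, Wee1 was nearly equal on W2 and W3, and its difference was 1.65 ± 0.33. Leo1 had the largest difference in the other direction, at -1.40 ± 0.43. Por, Alas1 and Pdxk, known targets of PAR bZIP factors in liver and brain, differed by 0.72 ± 0.30, -0.16 ± 0.54 and 0.71 ± 0.27, and the groups overlapped for Alas1.

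The genes with the profile nearest to Dbp were taken by Euclidean distance between values centred on each gene's own mean over the 4 arrays. They were 2610305D13Rik, at a distance of 0.631, Frem2 at 0.877 and Cd163l1 at 0.951, in log2 units. All 3 were not above background on W3, so how low they were there is uncertain. Of the other factors Ciart was nearest, at 1.04, and was not above background on W3 either, so its distance is uncertain too. Bhlhe41 was next among them, at 2.09. Over 4 arrays many genes share a profile, and the distances are a description.

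Other sets of genes also stood apart on W3 or on K5. Immediate early genes, whose RNA responds to stimuli within minutes, were taken as a list of 10 and were highest on W3 for 10 of 10. Their gap between W2 and W3 was 2.07 to 5.01, and their summed linear level relative to the 75th percentile was 122 to 884 on the Wild Type arrays and 170 to 187 on the K arrays. The groups overlapped for all 10, and the largest differences were those of Fosb, at -1.67 ± 1.30, and Fos, at -1.55 ± 1.33. The part of this in the low Dbp and high Nfil3 of W3 was not tested. Without W3 the differences of all 7 factors had the same sign, but groups that do not overlap fix that in advance. Nothing about W3 is read from it.

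Hypoxia genes, among which Bhlhe40 is a known responder, gave 2 of 10 without overlap, Adm higher and Car9 lower on the K arrays. The share without overlap over all genes compared was 29.8%. Adm differed by 1.87 ± 0.53. Vegfa differed by -1.15 ± 0.94 with groups that overlapped, and the median of the list was -0.24. The list was thus mixed where Bhlhe40 was slightly higher.

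The aorta was measured whole, so fewer cells of a type and less RNA per cell cannot be told apart. White adipocyte markers were lowest on K5 for 7 of 8, with a summed level of 392 to 666 on the Wild Type arrays, 617 on K4 and 28.8 on K5, where 6 of 8 were above background. Brown adipocyte markers were highest on W3 for 6 of 6 and summed to 23.0 on W2, 347 on W3, 111 on K4 and 4.44 on K5. Of these 6, 4 were above background on W2 and on K5. The output factors differed between K4 and K5 by at most 0.45. For the counts that follow, the shares over all genes compared were 16.1% higher and 13.7% lower on both K arrays. Skeletal muscle markers summed to 329 to 1067 on the Wild Type arrays and 127 to 221 on the K arrays, with 5 of 9 lower on both K arrays and 1, Myh1, higher. Markers of macrophages, cells that can express Bhlhe41 and Nfil3, were higher on both K arrays for 5 of 8 and summed to 161 to 333 and 260 to 266. Endothelial markers summed to 22.5 to 43.4 and 51.2 to 53.1, with 3 of 6 higher and 1 lower on both K arrays. Smooth muscle markers summed to 1373 to 1887 on the Wild Type arrays and 1078 to 1306 on the K arrays. Of these 8, 5 were lower on both K arrays, 0 of them by 2-fold or more. T and NK cell markers were higher on both K arrays for 3 of 6. Their summed level was 2.04 to 3.52 against 2.92 to 3.67, and it was lowest on W3. Cd8a and Ncr1 of that list did not enter the comparison. None of the measured markers had a signal of 0, and the part of these cell types in the differences was not tested.

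**Figure D4:**
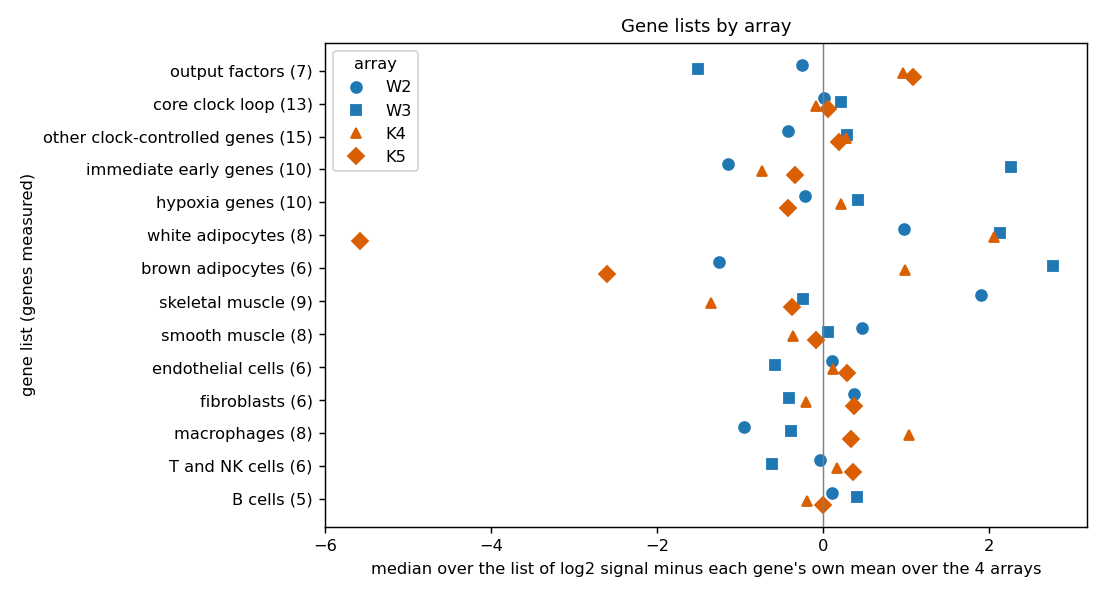
Median over each gene list of log2 signal minus the gene's own mean over the 4 arrays, with the number of genes measured in brackets, for W2 and W3 (blue) and K4 and K5 (orange). The output factors are lowest on W3 and nearly equal on K4 and K5, immediate early genes are highest on W3, and white adipocyte genes are low on K5 alone.

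**Figure D5:**
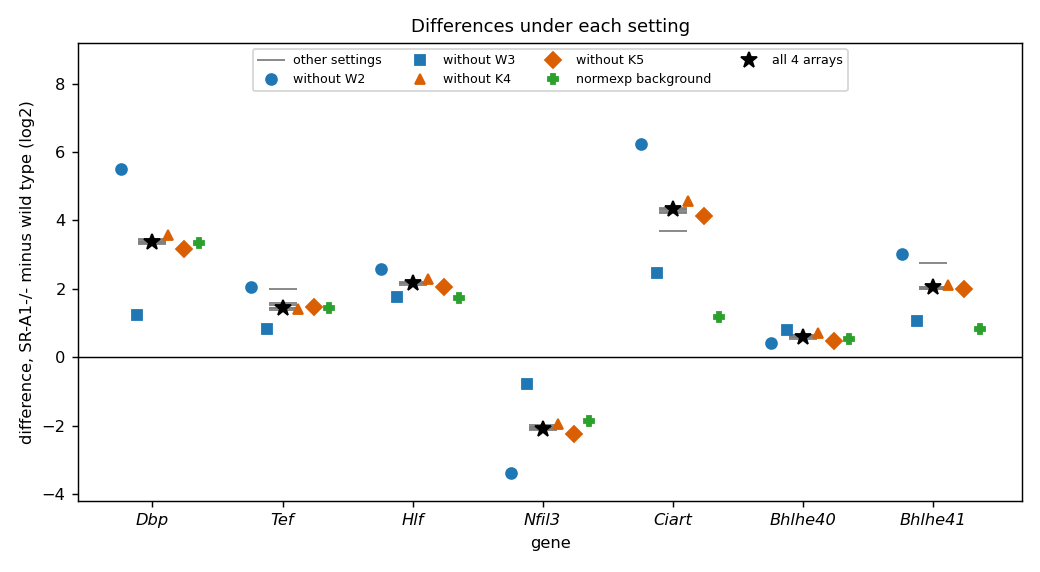
Difference between groups (SR-A1-/- minus Wild Type, log2 units) of each gene with all 4 arrays (star), with each array left out, with normexp background correction and under the other settings (grey bars). No gene crosses 0, and leaving out W2 or W3 moves Dbp, Ciart, Nfil3 and Bhlhe41 more than leaving out K4 or K5; the point of Ciart without W2 rests on W3, which was not above background.

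Across settings the direction of each of the 7 differences was kept, which the lack of overlap fixes for left-out arrays. The sizes of Dbp, Tef, Nfil3, Ciart and Bhlhe41 rested on W3, as their values without it show. Tef and Nfil3 fell below 2-fold without it. The median difference of the 7 was 1.06 without W3 and 1.16 with normexp background correction, whose added offset of 50 compresses dim probes.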

How the data were processed

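Total RNA of 4 aorta samples was labelled with Cy3 and scanned on 1 slide. Processed signals are intensity values that, per the file headers, Agilent Feature Extraction 12.0.3.1 background-subtracted and detrended within each array, with probe positions on mm9. The submitters' processing notes name version 10.7 and limma. Raw mean spot and local background intensity, and other columns with flags of 0 or 1, are as deposited. The authors also deposited log2 values, normalised in a way not given in the sources used here.

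Outlier spots were left out, 0 spots were saturated, repeated spots were averaged as log2, and each array's 75th percentile was subtracted. Probes above background on at least 2 of 4 arrays were kept, and the brightest probe stood for a gene. The linear model and moderated test of limma 3.58.1 (R 4.3.3, data.table version 1.17.8) compared the groups, two-sided, with Benjamini-Hochberg adjustment, and the fit was tested on simulated data. Plots used matplotlib 3.10.9.

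The genes, lists, motifs and rules were chosen with earlier results of these data known. All 7 genes and the core loop genes are named (others are not reported here and were left out of the list's counts), and of each other pathway list the 2 with the largest difference, and the 3 genes nearest Dbp. Tspan4, Usp2 and others of the lists are given by counts. Marker lists are given by counts or sums, except fibroblasts and B cells, which are shown only as medians in a figure. Por, Alas1, Pdxk, Car9, Myh1 and the values raised to an array's lowest signal called above background were added after their values were seen. Which exon or UTR a probe lies in was not analysed here. The number of arrays limits the precision. Alternatives were other scalings, normexp with an offset of 50, other filters, the mean of probes, the deposited values, signal level as a block and each array left out.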

Additional observations from a re-analysis of the deposited data

How the results depend on the processing

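No paired analysis was possible because the labels give no number or animal shared between the groups. The direction of each of the 7 differences was the same under every alternative run, except that Ciart had no value among genes above background on all 4 arrays. The count of genes past an adjusted p of 0.05 in limma, 0 with all arrays, was 8 with quantile normalisation, 7 with median scaling, 22 with normexp background correction, 8 without a filter on dim probes and 8 with the deposited values. The 7 factors gave 0 of these calls while all 4 arrays were kept. Leaving out 1 array gave 0 to 371 such genes, where the single array left is taken to vary as the other group does. No calls among the factors are read from these fits, because the group left with 1 array has no spread of its own. Without W2, Ciart rests on W3 as the only Wild Type array. It was not above background there, so the size of its difference without W2 is uncertain. Genes at least 2-fold apart without overlap, 1439 with all arrays, numbered 409 with normexp, 2314 without the filter, 912 above background on all arrays, and 2069 to 2885 with 1 array left out. The median difference of the 7 factors was 1.16 with normexp and 1.06 to 2.59 with 1 array left out. The count of factors lower by 2-fold or more was 0 to 1 with 1 array left out, being 0 without W3. The count higher by 2-fold or more, added after the data were seen, was 4 or 5 under every alternative run. With signal level as a block, counts of overlap have no value, and limma called 0 genes. Signal near background limits Ciart, Arntl, Npas2 and the second Bhlhe41 probe. The cause of the other changes was not tested.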
